A study of Mus musculus with 11 samples.

Results

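Oxidative phosphorylation is carried out in the inner mitochondrial membrane by 5 protein complexes, and the genes described here encode their nuclear subunits. The members were chosen by gene symbol: the Ndufa, Ndufb, Ndufc, Ndufs and Ndufv genes with a number, the Uqcr genes, Cyc1, Sdha to Sdhd, and all symbols that begin with Cox4 to Cox8 or with Atp5. Of 22068 symbols in the files 86 met this rule, and 82 of the 86 reached an average of 1 RPKM across all 11 libraries, as did 10557 symbols in all. RPKM, the unit of the deposited values, counts reads relative to a transcript's length and to the library's mapped reads, so levels of different genes can be placed beside each other. Complex I had 37 of 37 genes past that level, complex II 4 of 4, complex III 9 of 9, complex IV 16 of 19 and complex V 16 of 17. Below it lay Atp5s at a mean of 0.896 RPKM, Cox8b at 0.163 and Cox7b2 at 0.005, and Cox8c was listed at 0 in every library. Just above it lay Cox6b2, Cox4i2 and Cox6a2, at means of 1.41, 2.98 and 3.68 RPKM. The symbol rule also takes in Cox4nb, a gene of the endoplasmic reticulum membrane complex, Cox7a2l, a factor that joins respiratory complexes into supercomplexes, and Atp5s and Atp5sl, which are not structural subunits of the ATP synthase core. The 13 subunits that mitochondrial DNA itself encodes were not analysed here.

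The libraries were made from RNA of CD11b-positive myeloid cells, which had been enriched with antibodies and magnetic beads from tumours grown under the skin of mice and irradiated locally at 15 Gy, with harvest 4 days later. All hosts had a C57BL/6 background. The 3 groups were wild type (WT, 3 libraries), TLR9-/- (TLR9KO, 4 libraries) and STAT3-/- (STAT3KO, 4 libraries), the last made with an MxCre transgene and floxed Stat3. TLR9 is an endosomal receptor for DNA, and STAT3 is a transcription factor activated by cytokines. The Mx1 promoter that drives this Cre is switched on by interferon and is not restricted to myeloid cells. All 3 groups were irradiated, so no comparison here shows the effect of radiation. The labels do not name the tumour line and do not say that replicates came from separate animals, so p-values measure only the spread between these libraries, which may be technical.

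Electrons from NADH enter the chain at complex I and those from succinate at complex II, pass through ubiquinone to complex III and through cytochrome c to complex IV, where oxygen is reduced. Complexes I, III and IV pump protons, and complex V, the ATP synthase, uses the gradient to make ATP. Complexes I, III, IV and V have a catalytic core and, in mammals, small accessory subunits needed for assembly and stability. The 4 subunits of complex II are all classed here as core or catalytic. In macrophages the balance between this pathway and glycolysis is known to differ between inflammatory and alternative activation states.

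Promoter windows from RefSeq (GRCm38.p6, 250 bases before to 50 bases after the start of the gene, 300 bases in all) were found for 69 of the 86 members, 6 of them with a second window. The windows were searched on both strands for exact matches to the sites of factors known for respiratory genes: the palindromic consensus of NRF1 (in capitals below in Atp5k and Uqcrc1), ETS factors such as GABP (CCGGAAG), YY1 (AAGATGGC) and the cyclic AMP response element CRE (TGACGTCA). The NRF1 letters were in 6.67% of 75 member windows and in 0.971% of all 32851 windows. The YY1 letters were in 16.0% and 2.75%, the ETS letters in 21.3% and 8.86%, and the CRE letters in 5.33% and 1.79%. A match is a description of the sequence and not a shown binding site. Shown here are windows of 4 genes whose transcripts are described in detail below. Cox7b (chrX:106015450-106015749, plus strand) and Atp5k (chr5:108434350-108434649, minus strand) were among the members with the steepest rises. Atp5j (chr16:84834927-84835226, minus strand, the second of its 2 windows) rose as well, and Uqcrc1 (chr9:108936398-108936697, plus strand) was lower in both knockouts. Sequences run 5′ to 3′ along the gene's strand, with matched letters in capitals: the NRF1 letters and, on the reverse strand, the ETS letters in Atp5k, the YY1 letters followed by the ETS letters in Atp5j, and the NRF1 letters in Uqcrc1. The window of Cox7b held none of the 4, nor did the first window of Atp5j, which is not shown. No match overlapped another in the windows shown.
Cox7b: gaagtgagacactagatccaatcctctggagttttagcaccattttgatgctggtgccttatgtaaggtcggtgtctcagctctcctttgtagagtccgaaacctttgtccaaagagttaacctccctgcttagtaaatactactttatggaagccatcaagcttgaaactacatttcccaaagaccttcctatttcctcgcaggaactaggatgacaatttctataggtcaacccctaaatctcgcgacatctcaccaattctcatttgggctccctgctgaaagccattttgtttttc
Atp5k: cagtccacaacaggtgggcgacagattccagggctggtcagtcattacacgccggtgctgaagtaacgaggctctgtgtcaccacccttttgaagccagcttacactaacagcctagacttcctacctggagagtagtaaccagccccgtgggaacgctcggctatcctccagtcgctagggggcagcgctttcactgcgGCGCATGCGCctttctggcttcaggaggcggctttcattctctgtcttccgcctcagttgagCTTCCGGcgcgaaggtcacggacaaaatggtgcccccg
Atp5j: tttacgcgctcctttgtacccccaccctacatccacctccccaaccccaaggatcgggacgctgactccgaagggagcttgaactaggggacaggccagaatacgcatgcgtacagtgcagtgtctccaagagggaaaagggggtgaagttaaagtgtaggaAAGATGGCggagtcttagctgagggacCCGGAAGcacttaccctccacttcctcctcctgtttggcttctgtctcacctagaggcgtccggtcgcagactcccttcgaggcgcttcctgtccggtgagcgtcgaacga
Uqcrc1: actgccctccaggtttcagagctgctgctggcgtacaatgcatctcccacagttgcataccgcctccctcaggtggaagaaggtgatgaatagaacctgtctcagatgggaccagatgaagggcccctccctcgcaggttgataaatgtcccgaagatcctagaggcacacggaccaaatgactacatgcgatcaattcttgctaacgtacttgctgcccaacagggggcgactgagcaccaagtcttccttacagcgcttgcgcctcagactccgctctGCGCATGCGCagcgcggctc

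The targeted genes were low in the groups named for them. Stat3 was at 15.74 to 19.69 RPKM in STAT3KO against 70.66 to 76.12 in WT, and Tlr9 at 3.53 to 7.70 in TLR9KO against 20.53 to 41.56 in WT. Depth, estimated from the steps that single reads make in the values, was 30.0 to 53.45 M reads, so 50 RPKM in a transcript of 0.5 kb stood for about 750 to 1336 reads. Of the cell types that bead enrichment could leave, melanocyte markers (5 of 5 listed, none at 0) summed to 422.5 to 1368 RPKM in WT, 462.4 to 1337 in TLR9KO and 795.7 to 1225 in STAT3KO. Fibroblast markers (6 of 6 listed) summed to 2.18 to 4.49 RPKM in WT, 11.6 to 42.83 in TLR9KO and 15.57 to 30.95 in STAT3KO. Erythroid markers (4 of 4) summed to 27.4 to 104.7 RPKM in WT, 0.34 to 2.3 in TLR9KO and 1.73 to 31.35 in STAT3KO. Neutrophil markers (6 of 7 listed, Ly6g not among them) summed to at most 38.81 RPKM in WT and TLR9KO and reached 548.7 in STAT3KO replicate 2. The macrophage markers, 5 of 5, summed to 2176 to 2437 RPKM in WT, 2283 to 3040 in TLR9KO and 2935 to 3607 in STAT3KO, so that STAT3KO lay above WT with no overlap. Of these Emr1, Cd68 and Mertk were higher in STAT3KO than in WT and Mrc1 was lower, and Itgam, which encodes the CD11b used for enrichment, was lower as well (-0.47 ± 0.17, limma adjusted p = 0.0416). The part of these other cells in the differences below was not tested, and in bulk RNA fewer cells of a type and less RNA per cell cannot be told apart.

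In STAT3KO compared with WT, 54 of the 82 oxidative phosphorylation genes were higher, 2 were lower and 26 did not pass the test. The test was limma on log2(RPKM + 1), with Benjamini-Hochberg adjustment over all 10557 genes and a threshold of 0.05. Higher were 28 of 37 genes in complex I, 1 of 4 in complex II, 6 of 9 in complex III, 9 of 16 in complex IV and 10 of 16 in complex V. The 25% of complex II lay below the share of all genes called higher (29.2%). With median-ratio scaling and with the GC and length correction, both described below, 0 of its 4 genes were called. The largest rises were those of Cox7b, Ndufa4, Atp5j, Atp5k and Cox7a1, and Uqcrc1 was among the falls. The median log2 difference of the members was 0.434, against 0.095 over all genes tested. Of all genes tested 44% were called, 29.2% as higher and 14.8% as lower. In 60 members every STAT3KO library lay above every WT library and in 2 every one lay below, where 30.8% and 16.9% of all genes did.

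In TLR9KO compared with WT, 30 members were higher and 4 were lower, with Cox6a2, Ndufv1 and Uqcrc1 among them, and the median difference was 0.264 against 0.036 over all genes. Here 30.6% of all genes were called, 20% as higher and 10.6% as lower. In 28 members every TLR9KO library lay above every WT library and in 6 below, where 22.8% and 13.3% of all genes did (36.1% in all). Both comparisons use the same 3 WT libraries: 30 members were called higher in both, 24 were called higher in STAT3KO and did not pass in TLR9KO, which is no test of the difference, and Uqcrc1 was called lower in both. In the direct comparison of STAT3KO with TLR9KO, 25 members were higher and 0 lower, with a median of 0.229 against 0.065 over all genes, and 22.8% of all genes were called, 13.4% as higher and 9.46% as lower. In 24 members every STAT3KO library lay above every TLR9KO library and in 0 below, where 16.4% and 10.6% of all genes did (27% in all). The 25 calls of this comparison became 38 without TLR9KO replicate 3 and 16 without TLR9KO replicate 4, in fits whose shares over all genes are not given here.

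**Figure D1:**
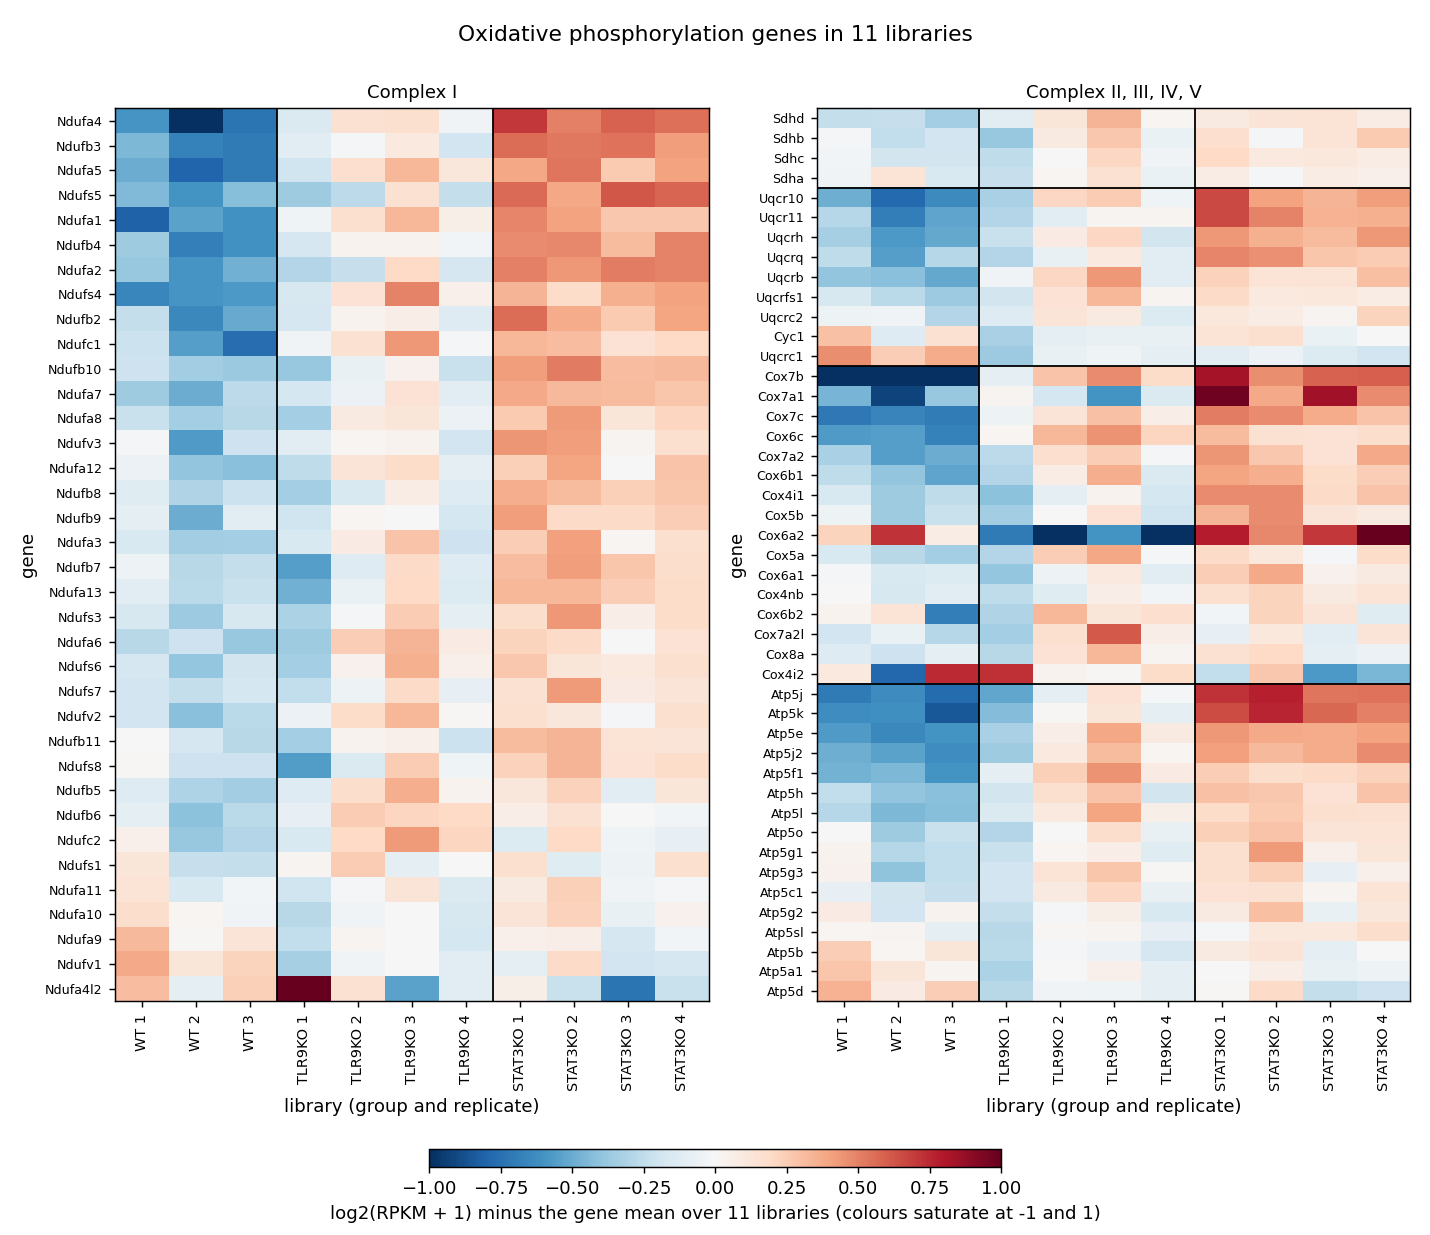
Each row is 1 gene (81 of the 82 tested are drawn) and each column 1 library; the colour gives log2(RPKM + 1) minus the gene's mean over the 11 libraries, in complex I (left) and complexes II to V (right), with rows ordered by the STAT3KO minus WT difference within a complex. Most rows run from blue in WT to red in STAT3KO, with TLR9KO replicate 1 closer to WT than the other TLR9KO libraries are, and the rows of Uqcrc1 and Cox6a2 differ from this pattern.

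The map by gene and library shows how the libraries of a group varied together. The median deviation of the members from each gene's mean was -0.150, -0.356 and -0.281 in WT replicates 1 to 3. It was -0.255, 0.033, 0.166 and -0.079 in the TLR9KO libraries and 0.241, 0.276, 0.130 and 0.177 in the STAT3KO libraries. STAT3KO did not overlap WT, while TLR9KO replicate 1 lay within the WT range and replicate 3 within the STAT3KO range. Each of the 5 complexes had its lowest TLR9KO median in replicate 1. With STAT3KO replicate 2 left out, the library with neutrophil markers, 48 members were higher and 3 lower than in WT. The share of all genes called in that fit is not given here, so these counts show only how the calls depended on that library. Other tested genes with transcripts of up to 700 bases, 231 in number, had medians of -0.394 to -0.276 in WT, -0.110 to 0.152 in TLR9KO and 0.178 to 0.344 in STAT3KO.

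**Figure D2:**
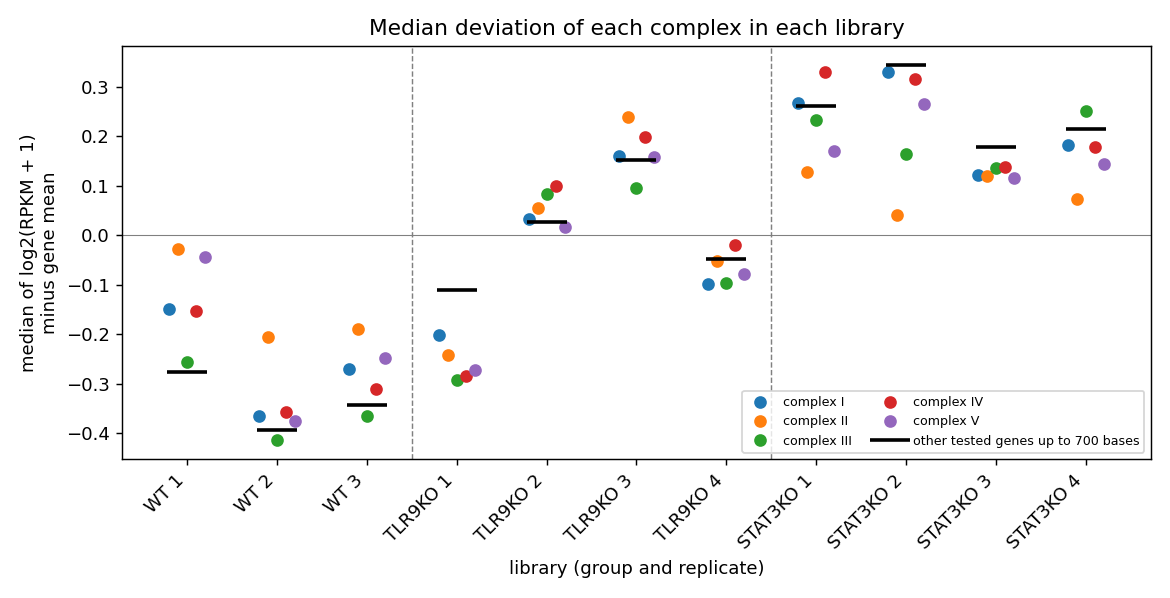
Points give the median, over the genes of a complex, of log2(RPKM + 1) minus the gene's mean, for each of the 11 libraries; black bars give the same median for 231 other genes with transcripts of up to 700 bases. All 5 complexes are below 0 in the WT libraries and above 0 in the STAT3KO libraries, the TLR9KO libraries range from -0.292 to 0.238, and the bars take the same order of groups.

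Transcript length and GC content moved with these differences. The members have short transcripts, with a median of 891.5 bases against 3013 over all genes tested. Length and GC content are those of a gene's longest listed protein-coding transcript, which need not be the one present in these cells. Among the members the STAT3KO minus WT difference had a Spearman correlation of -0.482 with length and -0.271 with GC content (n = 82 genes, which share libraries), and over all genes the values were -0.335 and -0.227. For TLR9KO minus WT they were -0.459 with length and -0.476 with GC content among the members, and -0.194 and -0.545 over all genes. For STAT3KO minus TLR9KO they were -0.272 and 0.139 among the members and -0.270 and 0.317 over all genes, so the sign for GC content was the opposite there. In STAT3KO minus WT, members of up to 700 bases had a median difference of 0.665, and all 257 genes of that length had 0.592. Above 700 and up to 1200 bases the medians were 0.457 for members and 0.446 for all genes, and beyond 1200 bases they were 0.246 and 0.063. For TLR9KO minus WT the members' medians in these 3 classes were 0.375, 0.228 and 0.091, beside 0.320, 0.193 and 0.012 for all genes. For STAT3KO minus TLR9KO they were 0.298, 0.274 and 0.116, beside 0.270, 0.241 and 0.049.

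**Figure D3:**
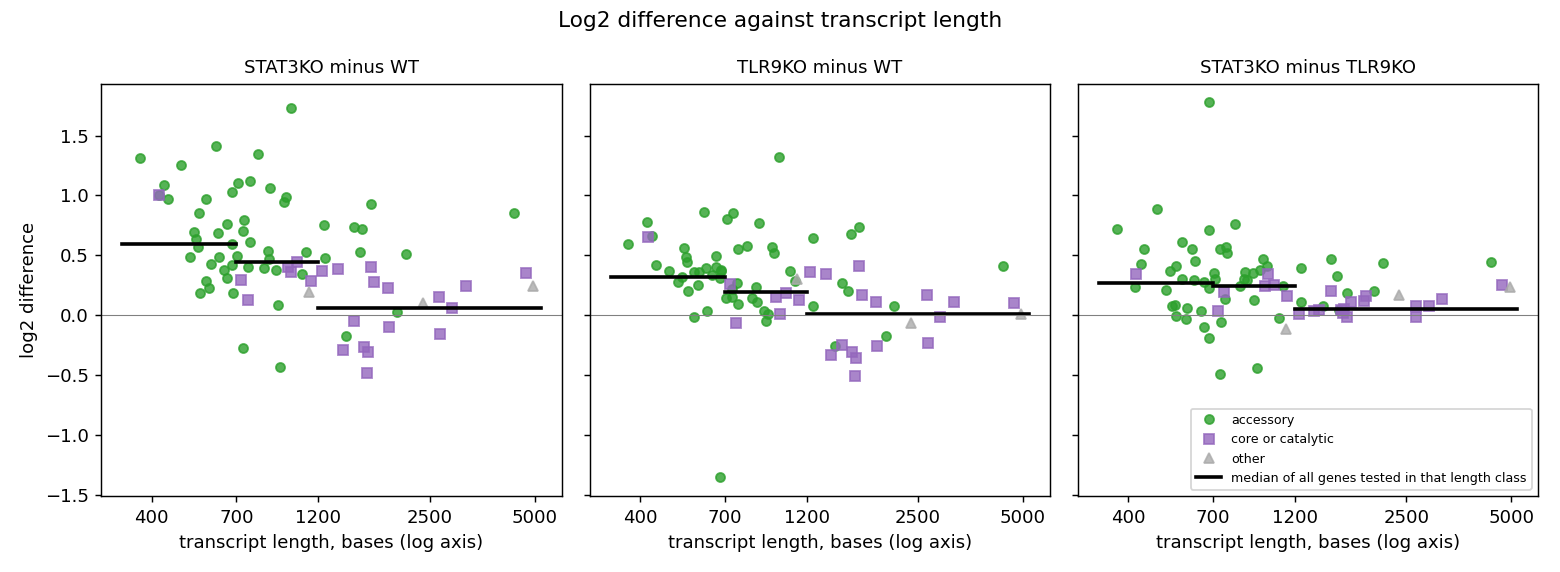
Each point is 1 of the 82 genes, with transcript length on a log axis and the log2 difference of the named comparison on the vertical axis; black bars give the median of all genes tested in 3 length classes (up to 700, up to 1200 and over 1200 bases). The medians of all genes fall from the shortest to the longest class in all 3 panels, single members lie far from them (Cox7b at 1.73 and 1.32 over WT, Cox6a2 at -1.35 in TLR9KO), and most core or catalytic subunits are long.

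When each library's trend with GC content and length was removed by a smooth fit over all genes, 24 members were higher and 14 lower in STAT3KO than in WT, and the median was -0.007. With that correction 18.8% of all genes were called higher and 19.5% lower. All 24 had been called higher without the correction. They include Cox7b, Cox7c, Cox4i1 and Cox7a1 of complex IV, Ndufa2, Ndufa4, Ndufa5, Ndufb3, Ndufs5 and Ndufv3 of complex I, Uqcr10, Uqcr11 and Uqcrq of complex III, and Atp5e, Atp5f1, Atp5j, Atp5j2 and Atp5k of complex V. Uqcrc1 stayed lower, and Atp5l, Ndufb6 and Uqcrb turned from higher to lower. For TLR9KO minus WT the correction left 8 members higher (Atp5e, Atp5f1, Atp5j, Cox6c, Cox7b, Ndufa5, Ndufb4 and Uqcr10) and 8 lower, with a median of -0.007, where 7.89% and 7.32% of all genes were called. For STAT3KO minus TLR9KO it left 15 higher and 4 lower, with a median of 0.038, where 9.4% and 10.1% of all genes were called. Scaling the libraries by median ratios moved the median of all genes in STAT3KO minus WT from 0.095 to -0.003, with 39 members higher and 5 lower where 43% of all genes were called, and the members' median was then 0.328. Which of these scales is closer to the RNA in the cells was not tested.

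**Figure D4:**
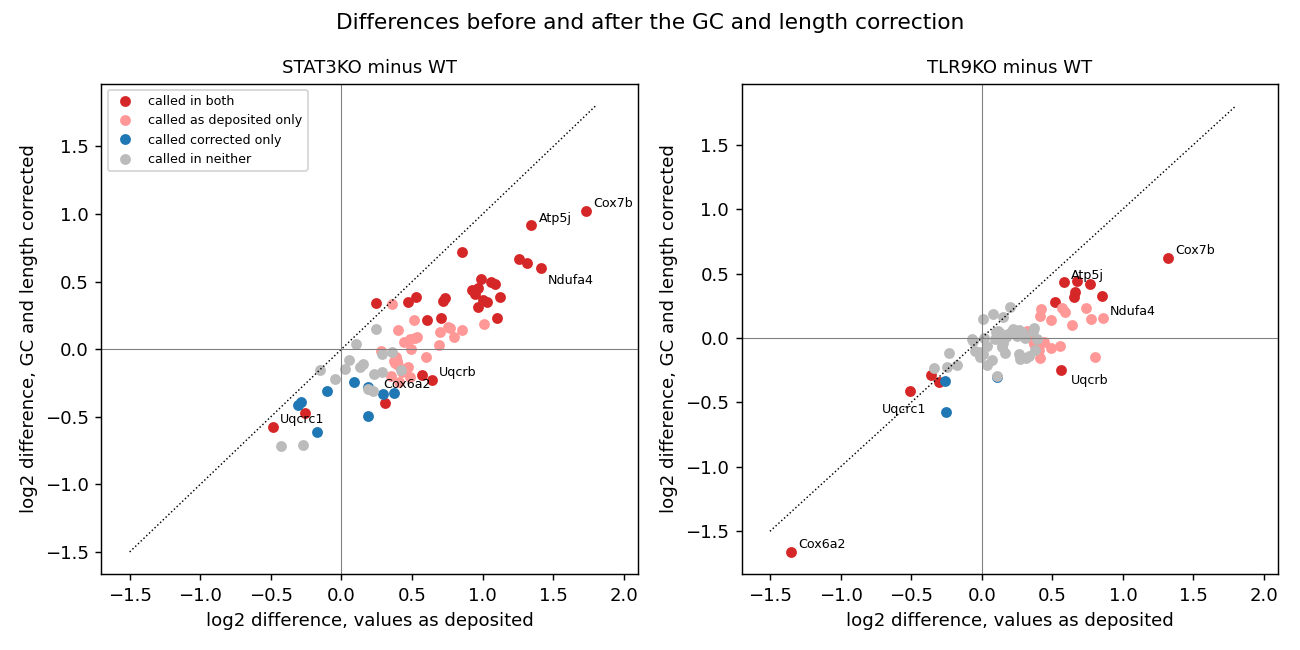
Each point is 1 of the 82 genes, with the log2 difference of the values as deposited on the horizontal axis and the difference after the GC and length correction on the vertical axis, for STAT3KO minus WT (left) and TLR9KO minus WT (right); the dotted line marks equal values. Most points lie below the line, Cox7b and Atp5j keep differences of 1.03 and 0.92 in STAT3KO, and Uqcrc1 and, in TLR9KO, Cox6a2 are lower on both axes.

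The role of a subunit went along with its length. Of 23 core or catalytic subunits, with a median length of 1623 bases, 8 were higher and 2 lower in STAT3KO than in WT, with a median difference of 0.248. These are 34.8% and 8.7%, near the 29.2% and 14.8% of all genes. Of 56 accessory subunits, with a median length of 732.5 bases, 45 (80.4%) were higher and 0 lower, with a median of 0.604. Among all genes tested 63.4% of those up to 700 bases and 56.9% of those above 700 to 1200 bases were higher. After the correction the counts were 1 higher and 6 lower for the core subunits and 22 higher and 8 lower for the accessory ones. These are 4.35% and 26.1% of the core and 39.3% and 14.3% of the accessory subunits, beside 18.8% and 19.5% of all genes. All 25 members that were higher in STAT3KO than in TLR9KO were accessory subunits, and none of the 23 core subunits passed that test. In that comparison 44.6% of the accessory subunits and 13.4% of all genes were called higher. Among all genes tested the share was 26.5% up to 700 bases and 30.9% above 700 to 1200 bases. With the correction 26.8% of the accessory subunits were higher and 7.14% lower there, beside 9.4% and 10.1% of all genes. Differences between the classes were not tested.

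Complex I takes electrons from NADH through a flavin and iron-sulfur clusters held by its matrix arm. Ndufv3, a small accessory subunit of the NADH-binding module, had the highest mean level of the complex, at 102 ± 19.4 RPKM in WT (SD, n = 3), 116 ± 8.74 in TLR9KO (n = 4) and 146 ± 20.5 in STAT3KO (n = 4). It rose in STAT3KO by 0.53 ± 0.14 on the log2 scale (± the model's standard error here and below; limma adjusted p = 0.0121). Ndufa4, first described as a complex I subunit and now assigned to complex IV, was at 48.9, 32.4 and 44.3 RPKM in WT, at 66.8, 82.2, 82.7 and 72.3 in TLR9KO and at 121, 105, 112 and 109 in STAT3KO. The 3 groups did not overlap. Ndufa4 rose by 1.41 ± 0.13 in STAT3KO (limma adjusted p = 3.3e-05) and by 0.86 ± 0.13 in TLR9KO (limma adjusted p = 0.00125), and was higher in STAT3KO than in TLR9KO by 0.55 ± 0.12 (limma adjusted p = 0.0102). With the GC and length correction its rise was 0.60 in STAT3KO and 0.15 in TLR9KO, the latter no longer past the threshold.

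Ndufs5, an accessory subunit on the intermembrane side, was at 14.8, 13.2 and 15.0 RPKM in WT, 15.8, 16.9, 23.0 and 17.3 in TLR9KO and 30.9, 27.2, 32.1 and 31.2 in STAT3KO. Its rise was 1.03 ± 0.12 in STAT3KO (limma adjusted p = 9.9e-05), while TLR9KO lay 0.32 ± 0.12 above WT without passing the test (limma adjusted p = 0.0647). Thus STAT3KO stood apart from both other groups, and by 0.71 ± 0.11 from TLR9KO (limma adjusted p = 0.00161). Ndufa2, an accessory subunit of the matrix arm, had a like order of groups, with means of 56.7 ± 4.20, 73.7 ± 12.1 and 112 ± 2.67 RPKM in WT, TLR9KO and STAT3KO. Ndufb3, of the membrane arm, had 26.0 ± 2.71, 38.6 ± 3.43 and 57.5 ± 2.5 RPKM and rose by 1.12 ± 0.09 in STAT3KO (limma adjusted p = 2.1e-05). Ndufa1, of the membrane arm, and Ndufa5, of the matrix arm, rose in both knockouts, by 1.01 ± 0.11 and 1.06 ± 0.12 in STAT3KO and by 0.78 ± 0.11 and 0.77 ± 0.12 in TLR9KO. With the correction Ndufa5 kept both calls and Ndufa1 neither. In TLR9KO the calls of Ndufa2 (limma adjusted p = 0.031) and Ndufb3 (0.00174) were lost with the correction, where the differences were -0.03 and -0.07, and that of Ndufa2 was lost as well without TLR9KO replicate 4 or any WT library (0.0503 to 0.0861).

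Ndufv1, the core subunit that binds NADH and the flavin, fell in TLR9KO from 57.2 ± 5.37 to 44.5 ± 4.53 RPKM, by 0.36 ± 0.12 (limma adjusted p = 0.0379). That call was lost without WT replicate 1 or 3, TLR9KO replicate 1, 2 or 4 or STAT3KO replicate 1 (0.054 to 0.152). In STAT3KO its level was 46.2 ± 6.02 RPKM, with a difference of -0.31 ± 0.12 that missed the threshold (limma adjusted p = 0.0531). It passed with the correction (-0.41, adjusted p = 0.0036) and with median-ratio scaling (-0.42, 0.015). Of further core subunits Ndufs3, Ndufs7 and Ndufv2 were higher in STAT3KO, and Ndufs1 and Ndufs8 did not pass. With the correction the 3 calls were lost, at 0.05, 0.14 and -0.12 (adjusted p = 0.672, 0.153 and 0.316).

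Complex II, succinate dehydrogenase, links the citric acid cycle to the chain. Its flavoprotein Sdha was at 76.2 ± 7.90 RPKM in WT, 75.3 ± 8.43 in TLR9KO and 79.0 ± 2.39 in STAT3KO, and its iron-sulfur protein Sdhb was at 108 ± 9.19, 120 ± 22.3 and 133 ± 10.5. The membrane anchor Sdhc had 78.4 ± 5.18, 85.3 ± 11.3 and 93.2 ± 3.63 RPKM. None of these 3 passed in any comparison. For Sdhb and Sdhc all STAT3KO libraries nevertheless lay above all WT libraries, and the STAT3KO minus WT differences were 0.29 ± 0.14 (limma adjusted p = 0.116) and 0.25 ± 0.10 (0.0717). The other anchor, Sdhd, was at 64.3, 64.6 and 59.8 RPKM in WT, 70.6, 82.5, 96.1 and 76.9 in TLR9KO and 80.8, 82.8, 83.4 and 79.8 in STAT3KO. It rose by 0.37 ± 0.10 in STAT3KO (limma adjusted p = 0.0101) and by 0.36 ± 0.10 in TLR9KO (0.0172), the latter not past the threshold without WT replicate 3 (0.0688). With the correction both calls of Sdhd were lost, at -0.09 and 0.06.

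Complex III passes electrons from ubiquinol to cytochrome c. Its small accessory subunits rose: Uqcr10 was at 70.6, 57.6 and 63.6 RPKM in WT, 79.4, 115, 119 and 96.6 in TLR9KO and 158, 132, 126 and 133 in STAT3KO. The groups of Uqcr10 did not overlap, and its rise was 1.09 ± 0.14 in STAT3KO (limma adjusted p = 0.0002) and 0.66 ± 0.14 in TLR9KO (0.00581), both kept with the correction. Uqcr11, Uqcrh (the hinge protein next to cytochrome c1) and Uqcrq rose in STAT3KO by 0.97 ± 0.12, 0.86 ± 0.11 and 0.73 ± 0.11. All of these except Uqcrq were also called in TLR9KO, with Uqcr11 at 0.42 ± 0.12 and Uqcrh at 0.44 ± 0.11. The call of Uqcr11 there was lost without WT replicate 2, WT replicate 3, TLR9KO replicate 3 or TLR9KO replicate 4 (limma adjusted p = 0.0606 to 0.0826). With the correction Uqcr11 and Uqcrq kept their STAT3KO calls, while the STAT3KO call of Uqcrh (0.14, adjusted p = 0.124) and the TLR9KO calls of Uqcr11 (0.23, 0.118) and Uqcrh (-0.03, 0.779) were lost. Uqcrb, a ubiquinone-binding subunit, rose by 0.64 ± 0.12 and 0.56 ± 0.12 in STAT3KO and TLR9KO but was lower with the correction, at -0.23 and -0.25 (adjusted p = 0.0316 and 0.0443).

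The large core protein Uqcrc1 went the opposite way. It was at 172, 148 and 160 RPKM in WT, 96.1, 118, 121 and 116 in TLR9KO and 114, 119, 113 and 109 in STAT3KO. Each knockout library was below each WT library, and the knockouts overlapped each other. Uqcrc1 fell by 0.49 ± 0.10 in STAT3KO (limma adjusted p = 0.00205) and by 0.51 ± 0.10 in TLR9KO (0.00302), and STAT3KO and TLR9KO differed by 0.02 ± 0.09 (0.898). The correction left falls of 0.57 and 0.41, both past the threshold, and no library left out ended either call. Cyc1, the cytochrome c1 that hands electrons on, was at 111 ± 16.3, 93.2 ± 7.75 and 107 ± 8.22 RPKM in WT, TLR9KO and STAT3KO and passed in no comparison.

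Complex IV, cytochrome c oxidase, has a mitochondrially encoded core, so its nuclear subunits here are all accessory, beside Cox4nb and Cox7a2l, which the symbol rule adds. The ubiquitous isoform of subunit IV, Cox4i1, had the highest mean level of the complex and was at 340, 294 and 316 RPKM in WT, 283, 352, 387 and 333 in TLR9KO and 523, 524, 430 and 460 in STAT3KO. It rose in STAT3KO by 0.61 ± 0.12 (limma adjusted p = 0.00229), while TLR9KO and WT overlapped. Cox7b, a small subunit of the membrane part, was at 23.6, 22.2 and 21.3 RPKM in WT, 46.2, 60.4, 68.8 and 56.2 in TLR9KO and 88.9, 68.6, 75.0 and 75.2 in STAT3KO. Both knockouts lay far above WT, while their ranges met at 68.6 and 68.8. Its rise, 1.73 ± 0.13 in STAT3KO (limma adjusted p = 1.3e-05) and 1.32 ± 0.13 in TLR9KO (0.0002), was the largest of all 82 members in both comparisons. With the correction it was 1.03 and 0.62, again the largest of the members, and past the threshold in both. STAT3KO was above TLR9KO by 0.41 ± 0.12 (0.0301), a call that was lost in 6 of 11 fits with 1 library left out, all of them TLR9KO replicates 1, 2 and 4 and STAT3KO replicates 1, 3 and 4 (0.0523 to 0.0846).

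Cox7c and Cox6c, also small subunits, rose in both knockouts. The means of Cox7c were 64.2 ± 1.32, 113 ± 11.4 and 139.5 ± 9.82 RPKM in WT, TLR9KO and STAT3KO, with rises of 1.10 ± 0.09 in STAT3KO (limma adjusted p = 2.2e-05) and 0.80 ± 0.09 in TLR9KO (0.00033). Those of Cox6c were 57.2 ± 2.57, 104.5 ± 13.2 and 100 ± 5.85 RPKM. Cox6c rose by 0.80 ± 0.10 in STAT3KO and 0.85 ± 0.10 in TLR9KO, and the knockouts differed by -0.06 ± 0.10 (limma adjusted p = 0.698). With the correction Cox7c kept its call in STAT3KO (0.23) and lost it in TLR9KO (-0.14), while Cox6c kept it in TLR9KO (0.32) and lost it in STAT3KO (0.09). Cox8a and Cox6a1, at 280 ± 11.1 and 300 ± 15.6 RPKM in WT, passed in neither comparison with WT.

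**Figure D5:**
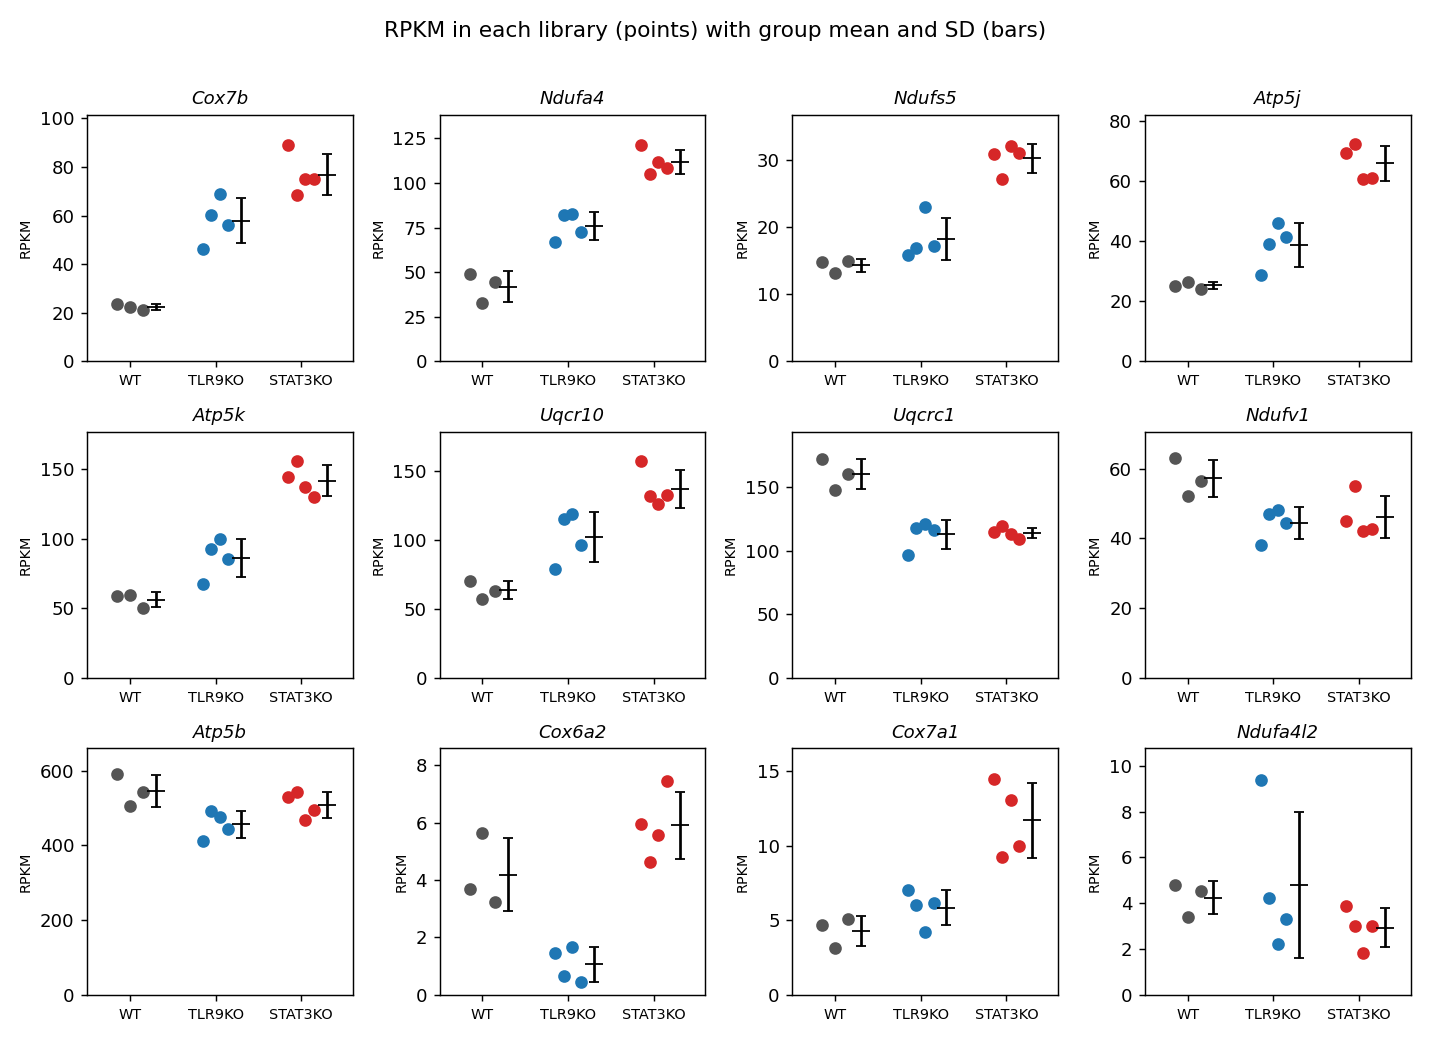
Each panel gives 1 gene, with a point per library, and the mean and SD of each group (n = 3 for WT, 4 for TLR9KO and 4 for STAT3KO) on a linear RPKM axis from 0. Cox7b, Ndufa4, Atp5j, Atp5k and Uqcr10 step up from WT to TLR9KO to STAT3KO, Uqcrc1 is lower in both knockouts, Ndufv1 has lower means in both, Cox6a2 is low in TLR9KO and Ndufa4l2 has a single high TLR9KO library at 9.39 RPKM.

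Several complex IV subunits have isoforms known from single tissues, and these were measured at low levels, as the panels by gene show for Cox6a2 and Cox7a1. Cox6a2, the heart and skeletal muscle isoform of subunit VIa, was at 3.69, 5.65 and 3.24 RPKM in WT, 1.47, 0.64, 1.67 and 0.46 in TLR9KO and 5.95, 4.63, 5.58 and 7.46 in STAT3KO. TLR9KO lay below both other groups with no overlap, and WT and STAT3KO overlapped. The fall in TLR9KO was 1.35 ± 0.23 in size (limma adjusted p = 0.00205), and STAT3KO was above TLR9KO by 1.78 ± 0.22 (0.00047), the largest difference of any member in that comparison. It made up 1.10 to 1.91% of the summed RPKM of Cox6a1 and Cox6a2 in WT, 0.154 to 0.595% in TLR9KO and 1.10 to 2.14% in STAT3KO. Cox7a1, the muscle isoform of subunit VIIa, was at 4.70, 3.14 and 5.05 RPKM in WT, 7.03, 5.99, 4.22 and 6.12 in TLR9KO and 14.4, 9.24, 13.1 and 9.95 in STAT3KO. STAT3KO was above both other groups, by 1.26 ± 0.19 over WT (limma adjusted p = 0.00049) and by 0.89 ± 0.18 over TLR9KO (0.00613, and 0.0746 with the correction). Its share of Cox7a1 and Cox7a2 was 5.84 to 8.74% in WT, 4.53 to 10.2% in TLR9KO and 9.26 to 13.6% in STAT3KO. The skeletal and heart muscle markers, 9 genes, summed to 0.75 to 1.25 RPKM in WT, 0.91 to 1.79 in TLR9KO and 1.23 to 2.24 in STAT3KO. Of the 9, 4 were under 0.1 RPKM in every library.

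Cox4i2, the isoform of subunit IV known from lung and from low oxygen, was at 3.03, 1.19 and 5.33 RPKM in WT, 5.25, 2.86, 2.80 and 3.29 in TLR9KO and 2.18, 3.55, 1.53 and 1.75 in STAT3KO. Ndufa4l2, a paralogue of Ndufa4 that is induced by hypoxia, was at 4.79, 3.41 and 4.52 RPKM in WT, 9.39, 4.21, 2.24 and 3.33 in TLR9KO and 3.87, 3.02, 1.83 and 3.02 in STAT3KO. Both overlapped between all groups, and neither passed in any comparison. As a share of the summed RPKM of the pair, Ndufa4l2 was 8.92 to 9.51% in WT, 2.64 to 12.3% in TLR9KO and 1.61 to 3.09% in STAT3KO. Cox6b2, the testis isoform of subunit VIb, had means of 1.17 ± 0.61, 1.53 ± 0.44 and 1.47 ± 0.26 RPKM and did not pass. Cox8b, the muscle isoform of subunit VIII, was at 0 to 0.09 RPKM in WT and TLR9KO and at 0.51, 0.16, 0.47 and 0.35 in STAT3KO, below the level tested.

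Complex V makes ATP at the 3 catalytic sites of its beta subunits, driven by a rotating ring of c subunits. Atp5b, the beta subunit, had the highest mean level of all 82 members, at 591, 505 and 542 RPKM in WT, 413, 491, 477 and 444 in TLR9KO and 529, 543, 467 and 495 in STAT3KO. All TLR9KO libraries lay below all WT libraries, but the difference of -0.26 ± 0.10 missed the threshold (limma adjusted p = 0.0719), and that of STAT3KO was -0.10 ± 0.10 (0.439). With the correction Atp5b was lower than in WT in both, at -0.31 and -0.33 (adjusted p = 0.0092 and 0.0182). Atp5e, the epsilon subunit of the central stalk, has a short transcript and rose by 1.00 ± 0.13 in STAT3KO (limma adjusted p = 0.00024) and by 0.66 ± 0.13 in TLR9KO (0.0045), from 128 ± 3.19 to 256.5 ± 5.21 and 205 ± 40.6 RPKM.

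The steepest rises in complex V were those of peripheral stalk and membrane subunits. Atp5j, coupling factor 6 of the peripheral stalk, was at 25.1, 26.5 and 24.0 RPKM in WT, 28.6, 38.9, 46.0 and 41.2 in TLR9KO and 69.2, 72.1, 60.7 and 61.0 in STAT3KO. It rose by 1.35 ± 0.14 in STAT3KO (limma adjusted p = 5.3e-05) and by 0.58 ± 0.14 in TLR9KO (0.00967), and STAT3KO exceeded TLR9KO by 0.77 ± 0.13 (0.00266). The 3 groups were separate, and all 3 calls held with the correction, at 0.92, 0.43 and 0.49. Atp5k, the e subunit that helps synthases pair into dimers, was at 59.2, 59.6 and 50.4 RPKM in WT, 67.5, 92.4, 99.6 and 85.6 in TLR9KO and 145, 156, 137 and 130 in STAT3KO. Its groups were separate too, with differences of 1.32 ± 0.13 (limma adjusted p = 4.1e-05), 0.59 ± 0.13 (0.00611) and 0.72 ± 0.12 (0.00244) in the same order. With the correction the TLR9KO call of Atp5k was lost (0.20, adjusted p = 0.156).

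Atp5f1, the b subunit of the peripheral stalk, was at 86.8 ± 14.1 RPKM in TLR9KO and 88.5 ± 2.09 in STAT3KO against 53.5 ± 3.06 in WT. It rose by 0.72 ± 0.11 in STAT3KO (limma adjusted p = 0.00065) and by 0.68 ± 0.11 in TLR9KO (0.00179), and kept both calls with the correction. Atp5j2, the f subunit, rose by 0.94 ± 0.13 in STAT3KO and 0.57 ± 0.13 in TLR9KO. Its excess in STAT3KO over TLR9KO, 0.38 ± 0.12 (limma adjusted p = 0.0474), was lost with 10 of the 11 libraries left out singly (0.0555 to 0.111), all but TLR9KO replicate 3. Atp5g1, Atp5g2 and Atp5g3 encode the same mature c subunit. They were at 70.5 ± 8.86, 182 ± 18.1 and 222 ± 35.4 RPKM in WT. In STAT3KO their levels were 90.5 ± 11.0, 199 ± 21.3 and 272 ± 25.7 RPKM. Of the 3, Atp5g1 was called higher in STAT3KO (0.36 ± 0.12, limma adjusted p = 0.0304), and not without WT replicate 2, WT replicate 3, STAT3KO replicate 1 or STAT3KO replicate 2 (0.053 to 0.1). The call of Atp5g1 was lost as well with the correction (0.33, limma adjusted p = 0.0841) and with median-ratio scaling (0.24, 0.121). With the correction Atp5g3 was called lower in STAT3KO than in WT (-0.33, limma adjusted p = 0.017). Differences between these 3 genes were not tested.

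Set beside the motif matches, the 5 members with the NRF1 letters (Atp5g2, Atp5k, Cox6a1, Ndufa11 and Uqcrc1) included 1 that was higher and 1 that was lower in STAT3KO than in WT, with a median difference of 0.13. Of the 61 tested members that had a window without these letters, 46 were higher and 0 lower. Members with the ETS letters numbered 16, of which 12 were higher and 0 lower in STAT3KO. Of the 50 without the ETS letters 35 were higher and 1 lower. Of the 11 with the YY1 letters 9 were higher and 0 lower, and of the 55 without them 38 were higher and 1 lower. Of all genes tested 29.2% were called higher and 14.8% lower. Medians with and without the letters were 0.529 and 0.449 for ETS and 0.513 and 0.442 for YY1. These are counts without a test.

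Among genes that build and serve the chain, 25 of 41 tested assembly factors were higher and 2 lower in STAT3KO than in WT, and 17 were higher and 1 lower in TLR9KO. The higher ones made up 61% and 41.5%, beside 29.2% and 20% of all genes. After the correction 7 were higher and 6 lower in STAT3KO. These are 17.1% and 14.6%, below the 18.8% and 19.5% of all genes. Cox17, a copper chaperone for complex IV, rose from 38.1 ± 1.12 RPKM in WT to 65.0 ± 6.05 in TLR9KO and 77.1 ± 6.11 in STAT3KO (1.00 ± 0.09 in STAT3KO, limma adjusted p = 2.8e-05, and 0.87 with the correction). The complex I assembly factor Ndufaf2 and Pet100, needed for complex IV and listed as 2900053A13Rik, rose in STAT3KO by 1.56 ± 0.16 and 1.3 ± 0.11. Coa5, a complex IV factor listed as 6330578E17Rik, fell from 59.9 ± 3.79 RPKM in WT to 40.5 ± 1.71 in STAT3KO (-0.55 ± 0.11, limma adjusted p = 0.00191), while TLR9KO had 64.5 ± 8.95. Of 17 tested regulators and mitochondrial DNA factors 5 were higher and 0 lower in STAT3KO, and 4 were higher and 1 lower in TLR9KO. The shares higher, 29.4% and 23.5%, were near the 29.2% and 20% of all genes. With the correction 6 were higher and 1 lower in STAT3KO, which are 35.3% and 5.88% beside 18.8% and 19.5% of all genes. In this list Ssbp1, which coats single-stranded mitochondrial DNA, rose by 1.01 ± 0.09 in STAT3KO (limma adjusted p = 3.1e-05), and Tfam, which packs mitochondrial DNA, by 0.43 ± 0.09 (0.0031).

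Carriers of electrons and metabolites gave 10 of 21 higher and 1 lower in STAT3KO and 5 higher and 2 lower in TLR9KO, which are 47.6% and 23.8% higher beside 29.2% and 20% of all genes. With the correction 4 were higher and 4 lower in STAT3KO, 19% each, near the 18.8% and 19.5% of all genes. Atpif1, the inhibitor that binds the catalytic part of complex V, was at 53.4, 47.2 and 40.97 RPKM in WT, 63.3, 82.3, 101.25 and 78.6 in TLR9KO and 156, 184, 139 and 153 in STAT3KO. The groups were separate, and its rise of 1.72 ± 0.15 in STAT3KO (limma adjusted p = 2.4e-05; 1.08 with the correction) was close to that of Cox7b. Slc25a4, which exchanges ADP for ATP across the inner membrane, rose by 1.12 ± 0.13 in STAT3KO (0.00012) and 0.65 ± 0.13 in TLR9KO (0.00462). Of 18 genes of pyruvate dehydrogenase and the citric acid cycle 6 were higher and 3 lower in STAT3KO, and 5 were higher and 3 lower in TLR9KO. In STAT3KO these are 33.3% and 16.7% of the list, near the 29.2% and 14.8% of all genes, and with the correction 1 was higher and 5 were lower. The lower ones included Ogdh, of the oxoglutarate dehydrogenase complex, at 65.6 ± 6.11 RPKM in WT, 42.9 ± 3.98 in TLR9KO and 43.1 ± 3.36 in STAT3KO. Cs, citrate synthase, fell by 0.41 ± 0.08 in STAT3KO (limma adjusted p = 0.00247) and by 0.32 ± 0.08 in TLR9KO (0.0146), and both genes kept these falls with the correction.

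Ribosomal protein and proteasome genes gave values to set beside these. In STAT3KO compared with WT 55 of 76 mitochondrial ribosomal protein genes, 59 of 80 cytosolic ribosomal protein genes and 24 of 38 proteasome subunit genes were higher. These are 72.4%, 73.8% and 63.2%, beside 65.9% of the oxidative phosphorylation genes and 29.2% of all genes. The medians of the 3 lists were 0.441, 0.616 and 0.361 beside 0.434 for the oxidative phosphorylation genes. With the correction the medians were 0.161, 0.146, 0.029 and -0.007 in the same order. In TLR9KO the medians were 0.204, 0.340 and 0.185, beside 0.264. Differences between these lists were not tested.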

How the data were processed

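The authors deposited 1 RPKM value per gene symbol and library, written to 2 decimals, per the file headers; for TLR9KO replicate 4 no unit stands in the header, and RPKM was assumed. Tools listed in the submitters' processing notes are TopHat 1.3.1, Bowtie 0.12.7, CASAVA 1.7 and Partek, with mouse build mm9. How reads that map to several places were counted is not given in the sources used here, and many of these genes have processed pseudogene copies, so their levels are uncertain to that extent. Libraries were grouped by title.

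Log2(RPKM + 1) values of the 10557 genes that averaged 1 RPKM or more were fitted in all 11 libraries with 3 group means in limma 3.58.1 (R 4.3.3; lmFit, contrasts and eBayes with trend; two-sided; Benjamini-Hochberg over all genes; threshold 0.05). The pseudocount of 1 understates changes of low genes. The recovery and false-call percentages given next describe simulated data only. Whether they hold for the calls reported here was not tested, since the real differences moved with transcript length and GC content. On simulated data (10557 genes; STAT3KO and then TLR9KO less WT, and the knockouts against each other), 2-fold changes were recovered in 92%, 85% and 88% and 4-fold changes in 99%, 98% and 97%, with 4.02%, 5.18% and 5.61% false calls. The GC and length correction removes, per library, a loess trend of each gene's deviation on both. Values were found for 98.9% of genes tested and all 86 members, from the longest protein-coding GENCODE M21 transcript of a gene. Such a length can exceed that of the transcript present. Uqcrq was taken at 1521 bases, Ndufb8 at 2142, Ndufb2 at 4371 and Atp5g1 at 4715. Whether corrected values and length classes would hold with shorter transcripts was not tested. Promoters are RefSeq's. Python 3.11.15 and pandas 2.3.3 handled the tables. Alternatives were other pseudocounts, filters, scalings, array weights, a replicate block and each library left out. Depths are estimates and cover counting error only. The genes named were, per complex and comparison, the highest in level and up to 3 of the largest rises and falls called, with complex II, Cyc1, isoforms and c subunits, and the smallest p of each other list; 1 member is not reported here. The members, lists and this rule were chosen with earlier results of these data known.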

Additional observations from a re-analysis of the deposited data

Results flagged for a closer look

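Cyc1 was at 81.6 RPKM in TLR9KO replicate 1, below the other 3 TLR9KO libraries, which lay between 96.4 and 97.4, a gap large for a group of 4 by Dixon's criterion. It was 1 of 96 groups tested this way, and chance alone flags about 1 in 20. TLR9KO replicate 1 also had the lowest median of the TLR9KO libraries in each of the 5 complexes.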

How the results depend on the processing

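With the GC and length correction the members' median log2 difference was -0.007 for STAT3KO minus WT, -0.007 for TLR9KO minus WT and 0.038 for STAT3KO minus TLR9KO, and the count called in TLR9KO minus WT was 16, not 34. Over all 82 tested members the correction turned 31 differences from above to below 0 for STAT3KO minus WT, 15 of them called as deposited, and 29 for TLR9KO minus WT, 10 of them called; for STAT3KO minus TLR9KO 23 turned below 0 and 2 above, none of them called. Among the members taken by the naming rule, those past the threshold before or after it were, for STAT3KO minus WT, Atp5g3 at -0.330, Cox8a at -0.283, Sdhd at -0.089 and Uqcrb at -0.227, and for TLR9KO minus WT, Cox7c at -0.144, Ndufa2 at -0.025, Ndufb3 at -0.066, Uqcrb at -0.248 and Uqcrh at -0.033. The cause was not tested. Array weights gave 38 calls, not 25, for STAT3KO minus TLR9KO. For array weights, the fits with 1 library left out and the replicate block, the share of all genes called is not given here. Their counts show only how far the members' calls depended on the processing. With 1 library left out, calls ranged from 43 to 62 for STAT3KO minus WT, from 25 to 41 for TLR9KO minus WT and from 16 (without TLR9KO replicate 4) to 38 (without TLR9KO replicate 3) for STAT3KO minus TLR9KO, and medians from 0.388 to 0.481, 0.203 to 0.332 and 0.158 to 0.301. Of 126 results for 42 members taken by the naming rule, 126 kept direction and call with pseudocounts of 0.1 and of 0.5, 122 without a filter, 122 with quantile normalization, 118 with median-ratio scaling and 94 with the correction. Correlations of same-numbered libraries ran from -0.291 to 0.492, and those of other pairs from -0.608 to 0.533. With so few libraries these values cannot show whether replicate numbers mark a shared animal or day. A replicate block gave 47, 28 and 17 calls and medians of 0.451, 0.273 and 0.229. Depth limits Cox8b, Cox7b2 and Cox8c, which rest on few reads or none.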

Other observations

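In RefSeq's gene order Cox6a2 lies beside the integrin genes Itgad, Itgax and Itgam on one side and 9130023H24Rik and Armc5 on the other. Itgax, which encodes CD11c, was at 191, 191 and 127 RPKM in WT, 66.0, 132, 111 and 100 in TLR9KO and 41.4, 21.8, 34.2 and 52.2 in STAT3KO, and it fell in STAT3KO by 2.19 ± 0.29 (limma adjusted p = 0.00024). Armc5 was at 9.13 to 13.0 RPKM in all libraries and passed in no comparison. Cox6a2 thus had its lowest level in TLR9KO and Itgax in STAT3KO.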
